A study of Mus musculus with 4 samples.

Results

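Glutathione and antioxidant enzymes of the mouse testis were described on 4 one-colour arrays of hypogonadal (hpg) mice. The members were all probe sets with a single annotated gene symbol of a cytosolic, kappa or microsomal glutathione transferase, a glutathione peroxidase, a peroxiredoxin, a superoxide dismutase, catalase, a gene of glutathione synthesis or reduction, or any symbol beginning with Txn. This rule took 64 of 12422 probe sets, for 48 genes. Of these, 53 probe sets for 43 genes had a mean scaled signal above the filter level of 22.7, and only those were tested. The filter used the mean over all 4 arrays.

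Mice of the hpg strain lack gonadotropin-releasing hormone and so make little testosterone of their own. Every array held testis RNA from hpg mice that had first received testosterone propionate, an injectable ester of testosterone, and then had it withdrawn. The first treatment lasted 2 weeks where a label gives its length, which the label of T+T replicate 1 does not. T+O, with 1 array, is labelled as withdrawn, and it is the comparison's only reference. T+T has 3 arrays by title. For replicate 1 the description adds a renewed 4-hour treatment with testosterone propionate, whereas the descriptions of replicates 2 and 3 stop at the withdrawal, so their place in T+T rests on the title. No label says whether an array held 1 animal or a pool, so p-values measure only the spread between these arrays. In whole testis, fewer cells of a type and less RNA per cell cannot be told apart.

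Cells remove reactive oxygen in linked steps. Superoxide dismutases turn superoxide into hydrogen peroxide, which catalase, glutathione peroxidases and peroxiredoxins then reduce. Glutathione and thioredoxin supply the electrons and are themselves recharged by reductases that use NADPH, while glutathione transferases (GST) attach glutathione to reactive compounds. The testis is known for isoforms of its own, such as Gpx4 in the sperm midpiece, Gstm5, and Txnrd3, a reductase that joins a glutaredoxin and a thioredoxin reductase domain.

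None of the 53 members tested passed the adjusted threshold of 0.05 in either direction (limma, lowest adjusted p = 0.604), beside 0.0268% of all 7453 probe sets tested. At an unadjusted p under 0.05 there was 1 member higher and 0 lower in T+T, beside 3.57% of all probe sets higher and 4.23% lower. No member differed from T+O by 1.5-fold or more in the same direction on all 3 T+T arrays, where 1.84% of all probe sets were higher and 2.23% lower. Differences are on the log2(scaled signal + 9.78) scale, which understates the change of dim probe sets. The median difference of the members, T+T minus T+O, was 0.14, and that of all probe sets was 0.026. Of the 53, 36 (67.9%) were above 0 and 17 below, beside 53.7% of all probe sets tested above 0. With 1 probe set per gene, the brightest, the median over the 43 genes was 0.054, with 27 above 0 and 16 below. The 95% interval of the limma fit stayed within a 2-fold difference either way for 44 of the 53 members (83.0%). The share of all probe sets tested was 66.2%. On the offset scale these intervals bound the difference of those members between these arrays, without showing that it is 0. They take the spread of the single T+O array to be that of T+T.

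The GST mu class, with 12 probe sets of 5 genes, weighed on that median. Outside it, the median of the other 41 members was 0.018, with 24 above 0 and 17 below, beside 53.7% of all probe sets above 0. In 35 of those 41 the range among the T+T arrays was wider than the mean difference from T+O, as it was in 71.9% of all probe sets tested. The plot of differences by family shows the same division.

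**Figure D1:**
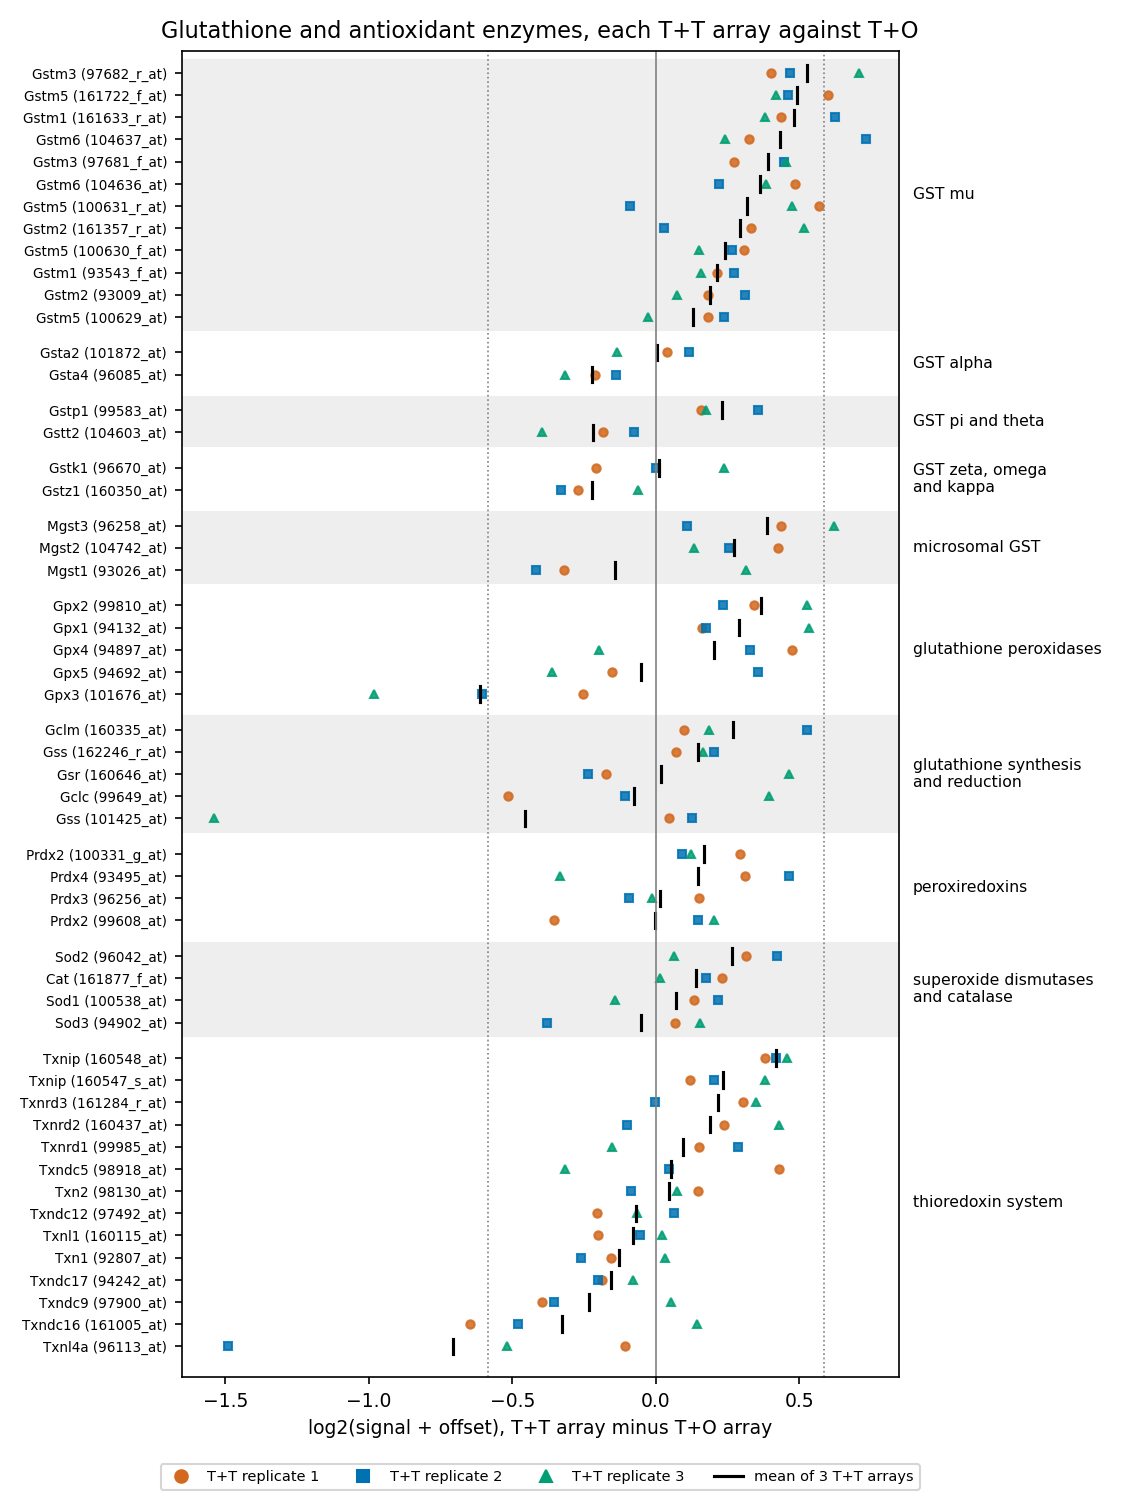
Difference of each T+T array from the T+O array on the log2(signal + offset) scale, for the 53 members kept, grouped by family; symbols are T+T replicates 1 to 3, the black bar is their mean, and dotted lines mark 1.5-fold. All 12 GST mu means lie right of 0, while the 14 thioredoxin system means divide into 7 on each side.

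GST mu enzymes are cytosolic transferases encoded by neighbouring genes on mouse chromosome 3. Because this was the only family with every mean on 1 side of T+O, the 250 bases before the start of 4 of its genes are shown, those whose listed start is the outermost of the gene, from RefSeq (GRCm38.p6). They lie at chr3:108017974-108018223 on the minus strand for Gstm1, chr3:107986421-107986670 on the minus strand for Gstm2, chr3:107969175-107969424 on the minus strand for Gstm3 and chr3:107895604-107895853 on the plus strand for Gstm5. Capitals mark matches, on either strand, to TGACNNNGC, the core of the antioxidant response element, or to AGAACA, the half-site of steroid receptor elements.
Gstm1: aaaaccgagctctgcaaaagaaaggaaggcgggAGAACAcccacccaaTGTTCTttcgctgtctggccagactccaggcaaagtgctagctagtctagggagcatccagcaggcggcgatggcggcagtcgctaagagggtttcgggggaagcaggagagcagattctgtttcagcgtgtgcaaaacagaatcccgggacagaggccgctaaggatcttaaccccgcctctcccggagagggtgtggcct
Gstm2: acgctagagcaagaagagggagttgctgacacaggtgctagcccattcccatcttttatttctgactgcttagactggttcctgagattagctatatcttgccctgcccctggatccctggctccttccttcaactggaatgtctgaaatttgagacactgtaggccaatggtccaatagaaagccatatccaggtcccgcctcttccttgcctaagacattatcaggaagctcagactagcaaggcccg
Gstm3: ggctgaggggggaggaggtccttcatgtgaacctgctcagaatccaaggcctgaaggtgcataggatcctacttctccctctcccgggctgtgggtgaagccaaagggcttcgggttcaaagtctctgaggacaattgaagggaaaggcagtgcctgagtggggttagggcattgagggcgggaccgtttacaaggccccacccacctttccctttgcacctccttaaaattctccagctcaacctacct
Gstm5: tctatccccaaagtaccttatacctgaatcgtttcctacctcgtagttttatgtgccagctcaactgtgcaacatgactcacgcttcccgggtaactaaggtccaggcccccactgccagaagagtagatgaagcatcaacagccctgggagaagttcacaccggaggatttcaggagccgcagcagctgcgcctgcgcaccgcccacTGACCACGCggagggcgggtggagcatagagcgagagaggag

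The Gstm5 window held 1 antioxidant core, which begins 42 bases before the start. The Gstm1 window held 2 half-sites on opposite strands, which begin 217 and 202 bases before the start. Their spacing was not compared with that of a full element. Windows for Gstm2 and Gstm3 held neither. Of the 48 member genes, 41 had such a window in the table, with the most upstream listed start taken for each gene. The antioxidant core was found in 5 of these 41 (12.2%) and in 10.1% of 27025 genes, and the half-site in 7 (17.1%) against 16.1%. TGACGTCA, the cyclic AMP response element, was in 0 of the 41 and in 1.6% of all. Where these motifs overlap, each is counted. A match is a string of letters and was not tied to any signal here.

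All 12 GST mu probe sets, from 5 genes, had a mean difference above 0, between 0.13 and 0.53, with a median of 0.34. In 10 of the 12 the T+O signal was below all 3 T+T signals, and in the other 2 it lay within them. Over all probe sets tested, 53.7% had a difference above 0, and T+O was below all T+T arrays in 29.5%. None of the 12 passed, with adjusted p between 0.604 and 0.925 (limma). Probe sets of this class share sequence: several carry the suffix f (a sequence family) or r (probe design rules relaxed), so their signals can come from each other's transcripts, and the 12 are not independent. Taking 1 probe set per gene, the brightest, T+O was below all T+T arrays for 5 of 5 genes, with a median difference of 0.24. That median is the value of Gstm5 100630_f_at, which depended on the normalization (0.064 after quantile normalization).

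Gstm3 had the highest difference of the 53 members tested. Its probe set 97682_r_at had a signal of 121 in T+O and of 163, 171 and 204 in T+T replicates 1, 2 and 3, so the groups did not overlap. The log2 difference was 0.53 ± 0.21 (SE; limma, unadjusted p = 0.039, adjusted p = 0.604). The second Gstm3 probe set, 97681_f_at, had 256 in T+O against 312, 353 and 355, a difference of 0.39 ± 0.18 (SE).

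Gstm5, the class member known for its abundance in testis, was read by 4 probe sets. On 100630_f_at T+O had 7734 and the T+T arrays 9573, 9296 and 8581, a difference of 0.24 ± 0.18 (SE) with no overlap. After quantile normalization that difference was 0.064. On 100629_at, the only one without a suffix for shared or relaxed probes, T+O had 3042 against 3456, 3592 and 2983, so that T+T replicate 3 fell below T+O. That difference, 0.13, was the lowest of the class, and it was 0.062 after quantile normalization. The dimmer 161722_f_at had 71.5 against 114, 102 and 98.95, and 100631_r_at had 62.2 against 97.1, 57.8 and 90.3. The probe sets of this gene thus had 1 sign but differed in whether the groups overlapped.

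The other 3 genes lay on the same side. Gstm1, a main hepatic mu enzyme, had 1754 in T+O against 2034, 2120 and 1959 on 93543_f_at, a difference of 0.21. Its second probe set, 161633_r_at, had 80.4 against 112, 129 and 108. Gstm2 had 809.7 against 921, 1007 and 853 on 93009_at and 73.7 against 95.2, 75.4 and 110 on 161357_r_at. In both, T+O was lowest, on the latter by a narrow gap to T+T replicate 2. Gstm6 had 81.5 against 118, 96.6 and 109 on 104636_at, and 117 against 149, 201 and 140 on 104637_at, again with T+O lowest.

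**Figure D2:**
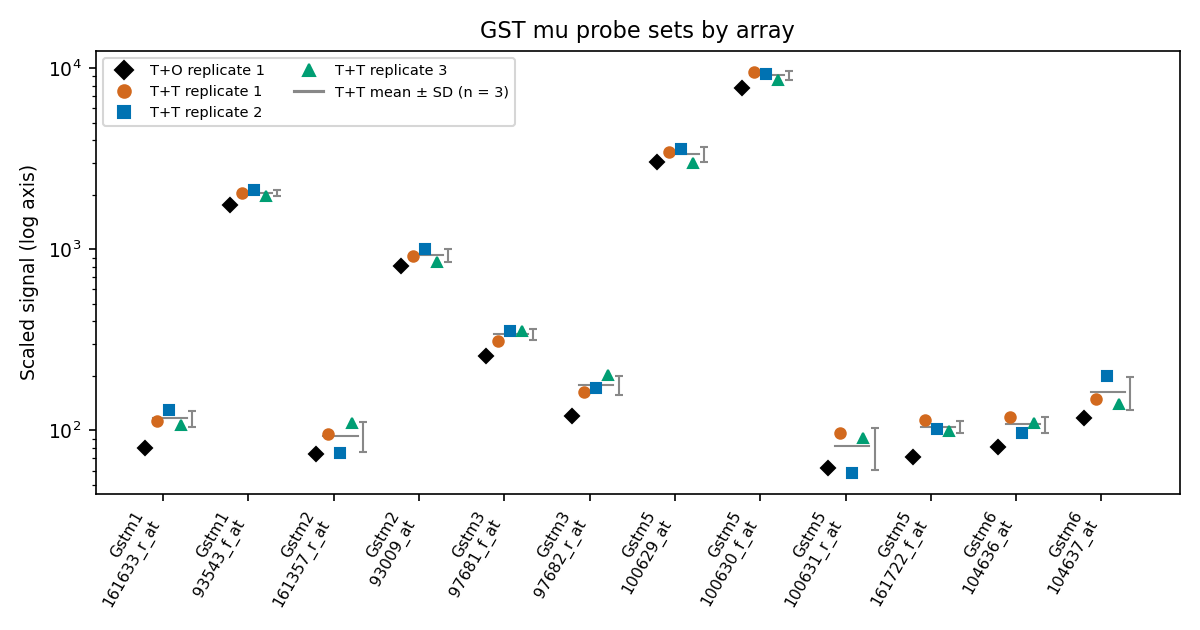
Scaled signal of the 12 GST mu probe sets on a log axis, with T+O replicate 1 as black diamonds, the T+T arrays as coloured symbols and grey lines for the T+T mean ± SD (n = 3). The T+O diamond is the lowest point in 10 of the 12; levels of different probe sets are not comparable with each other.

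Some measures of the arrays moved with the same division. The ratio of 3′ to 5′ signal of the control gene Gapdh, a measure of RNA and target length, was 1.20 in T+O and 0.809 to 0.886 in T+T, and that of pyruvate carboxylase was 3.76 against 1.76 to 2.00. The Actb ratio of T+O, 1.53, fell inside the T+T values of 1.17 to 1.66. Deposited signal level did not separate the groups: the trimmed mean was 106 in T+O and 72.9 to 124 in T+T. Summed marker signals, over 8 of 9 listed Leydig genes, 13 of 15 Sertoli genes, 8 of 9 spermatocyte genes and 13 of 14 spermatid genes, lay in T+O within the T+T range, at 681 (628 to 743), 3709 (3653 to 4249), 8489 (8108 to 9729) and 35962 (34647 to 44819). The T+O sum was below the T+T range for peritubular myoid genes (6 of 6 measured, 464 against 533 to 582), endothelial genes (6 of 6, 217 against 233 to 316), macrophage genes (9 of 9, 394 against 412 to 600) and red blood cell genes (6 of 7, 639 against 664 to 734). It was above the range for spermatogonia genes (7 of 7, 1233 against 816 to 1182) and adipose genes (4 of 6, 360.2 against 248 to 329). These sums are carried by their brightest probe sets, and the genes within a list went both ways. A difference above 0 was found in 4 of 6 tested Leydig, 11 of 13 Sertoli, 5 of 7 spermatocyte and 8 of 13 spermatid genes. Of the tested genes, 2 of 6 spermatogonia, 1 of 2 adipose, 4 of 6 myoid, 2 of 3 endothelial, 6 of 8 macrophage and 4 of 5 red blood cell genes had a difference above 0. Within the spermatocyte sum, where Ldhc alone gave 5073 in T+O, the synaptonemal complex gene Sycp1 had 390 in T+O against 13.5, 38.5 and 36.2 (limma, adjusted p = 0.106). The Sertoli gene Kitl had 49.9 in T+O against 14.4, 12.6 and 17.4 (limma, adjusted p = 0.448). No listed marker was at 0 and none passed the test. Sycp1 and Kitl went against most tested genes of their lists. Dazl, of the spermatogonia list, was also at least 1.5-fold under T+O on every T+T array, at 166 against 63.5, 79.2 and 103. The part of these array and marker differences in the GST mu signals was not tested.

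The other cytosolic transferases and the kappa enzyme showed no common side. Gstp1, the pi class enzyme, had 251 in T+O against 281, 324 and 285 in T+T, a difference of 0.23 ± 0.19 (SE; limma, adjusted p = 0.84), with T+O lowest. Gstt2, of the theta class, lay the other way, with 195 against 171, 185 and 146, a difference of -0.22. T+O was also the highest array for the alpha enzyme Gsta4, which detoxifies the lipid aldehyde 4-hydroxynonenal, at 97.6 against 82.9, 87.7 and 76.4. Gsta2 had 150.4 against 155, 164 and 136, a difference of 0.006 whose sign turned after median scaling. For Gstz1, which acts in tyrosine breakdown, the signals were 193 against 158, 152 and 185, a difference of -0.22. Gstk1, the kappa enzyme of mitochondria and peroxisomes, had 32.8 against 27.1, 32.9 and 40.5, and its difference of 0.012 turned sign after median scaling and after quantile normalization.

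Microsomal transferases are membrane enzymes, some of which also make leukotriene C4. Mgst3 had 72.3 in T+O against 101, 78.8 and 116 in T+T, a difference of 0.39 ± 0.26 (SE; limma, adjusted p = 0.79), with T+O lowest. Mgst1 had 68.7 against 53.0, 49.0 and 87.8, so that T+O lay inside the T+T spread. The probe sets of Mgst2 disagreed. On 104742_at T+O had 20.9 and the T+T arrays 31.5, 26.9 and 23.9. On 161865_r_at T+O had 19.4 and the T+T arrays 6.44, 5.17 and 6.08, a wide gap the other way, at signals below the filter level, so it was not tested. With no filter this was the 1 member at least 1.5-fold to a single side on all 3 T+T arrays. The direction for Mgst2 is uncertain.

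Glutathione peroxidases reduce hydrogen peroxide and lipid peroxides with glutathione. Gpx4, which protects membranes and is a structural protein of the sperm midpiece, had 838 in T+O against 1168, 1054 and 729 in T+T. The T+O value lay inside that spread, and the difference was 0.20 with a 95% interval of -0.41 to 0.81 (limma, adjusted p = 0.92). It was 0.065 without T+T replicate 1 and 0.40 without replicate 3. Gpx3, the secreted plasma peroxidase, had 134 against 111, 84.8 and 63.1, so T+O was the highest array. Its difference of -0.61 ± 0.30 (SE) was the lowest of the family (limma, adjusted p = 0.70). Without T+T replicate 1 it was -0.79, and Gpx3 became the 1 member at least 1.5-fold lower on every T+T array left.

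Gpx2, the epithelial isoform, had 40.2 in T+O against 53.7, 49.1 and 62.3, with T+O lowest and a difference of 0.37 ± 0.27 (SE). The cytosolic Gpx1 had 108 against 122, 124 and 162, also with T+O lowest. Gpx5, a secreted peroxidase of the epididymis that depends on androgen there, had 39.3 against 34.4, 53.1 and 28.4 on 94692_at, and T+O lay inside the spread. The other epididymis genes measured, Lcn5 and Adam7, fell below the filter level with mean signals of 7.45 and 17.2 over the 4 arrays. Gpx7 was dim on every array, at 2.65 in T+O against 3.34, 2.39 and 3.19.

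Synthesis of glutathione runs through glutamate-cysteine ligase, made of the catalytic subunit Gclc and the modifier Gclm, and then glutathione synthetase, Gss. Gclc had 58.1 in T+O against 37.7, 53.2 and 79.4, and T+O fell inside that spread. Gclm had 94.9 against 102, 141 and 109, with T+O lowest and a difference of 0.27 ± 0.24 (SE) that was 0.14 without T+T replicate 2. Gss gave opposite signs on its 2 probe sets. The brighter, 101425_at, had 172 in T+O against 178, 189 and 52.9, so the mean difference of -0.46 ± 0.59 (SE) came from T+T replicate 3 and was 0.086 without that array. The dimmer, 162246_r_at, had 32.6 against 34.7, 39.0 and 37.7, and T+T replicate 3 did not stand apart there. Gsr, which restores oxidised glutathione, had 122 against 107, 102 and 171, a difference of 0.018.

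Peroxiredoxins reduce peroxides through a reactive cysteine that thioredoxin recharges. Prdx2, the main cytosolic form of red blood cells and neurons, had 452 in T+O against 557, 483 and 494 on 100331_g_at, a difference of 0.17 ± 0.18 (SE) with T+O lowest. On 99608_at it had 26.7 against 18.8, 30.6 and 32.3, a difference of -0.00089. The probe set 100330_at stayed between 0.80 and 1.40 on all arrays. Prdx4, the form of the secretory pathway that is abundant in testis, had 436 against 544, 606 and 344, so that T+T replicate 3 fell below T+O. Prdx3, in mitochondria, had 112 against 126, 105 and 111, a difference of 0.015.

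Sod1, the cytosolic superoxide dismutase, had 1135 in T+O against 1247, 1321 and 1028 in T+T, a difference of 0.07 with a 95% interval of -0.38 to 0.52. Sod2, in mitochondria, had 144 against 182, 196 and 151, with T+O lowest and a difference of 0.27 ± 0.22 (SE; limma, adjusted p = 0.84). The extracellular Sod3 had 137 against 144, 103 and 154, with T+O inside the spread. Catalase, which breaks down hydrogen peroxide in peroxisomes, had 173 against 205, 197 and 175 on 161877_f_at, where T+T replicate 3 lay close to T+O. Its second probe set, 160479_at, was below the filter level, at 10.7 against 12.2, 4.51 and 15.6.

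**Figure D3:**
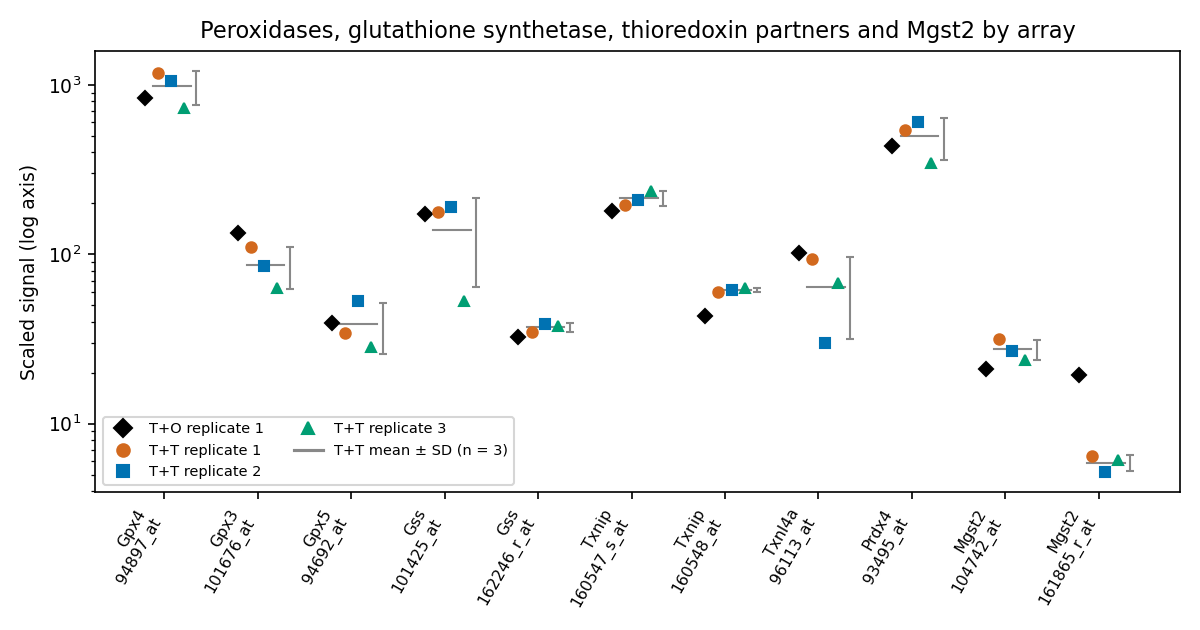
Scaled signal on a log axis of 11 probe sets of Gpx4, Gpx3, Gpx5, Gss, Txnip, Txnl4a, Prdx4 and Mgst2, with T+O replicate 1 as black diamonds, T+T arrays as coloured symbols and grey lines for the T+T mean ± SD (n = 3). Single T+T arrays stand apart for Gss 101425_at (replicate 3, 52.9) and Txnl4a (replicate 2, 29.9), and the 2 probe sets of Mgst2 lie on opposite sides of T+O.

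The thioredoxin symbols covered the 2 thioredoxins, their reductases, an inhibitor and proteins that share the thioredoxin fold. Of 14 probe sets tested, 7 were above 0 and 7 below, with a median of -0.012. In 12 of the 14 the T+T arrays ranged more widely than the mean difference, beside 71.9% of all probe sets. Txnip, which binds and inhibits thioredoxin, was higher in every T+T array on both of its probe sets. On 160548_at it had 43.4 in T+O against 59.6, 61.4 and 63.3, the tightest T+T values among the members tested, and a difference of 0.42 ± 0.25 (SE; limma, adjusted p = 0.74). On 160547_s_at it had 180 against 196, 209 and 238, a difference of 0.23.

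Txnl4a had the lowest difference of the 53 members tested, although its product is a spliceosome component and no antioxidant enzyme. It had 102 in T+O against 93.5, 29.9 and 67.9, a difference of -0.71 ± 0.48 (SE; limma, adjusted p = 0.79), and this became -0.31 without T+T replicate 2. Cytosolic thioredoxin, Txn1, had 146 against 130, 120 and 149.6. Mitochondrial thioredoxin, Txn2, had 266 against 296, 250.1 and 281. For both, T+O lay inside the T+T spread.

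All 3 thioredoxin reductases had T+O inside the T+T spread, with differences of 0.095 for the cytosolic Txnrd1, 0.19 for the mitochondrial Txnrd2 and 0.22 for the testis form Txnrd3 on 161284_r_at. Txnrd3 had 237 in T+O against 294, 236 and 304 there. Its other probe set, 161043_r_at, was below the filter level at 5.03 against 22.5, 4.78 and 12.4. Txndc16, a protein of the endoplasmic reticulum, had 147 against 90.4, 103 and 164, a difference of -0.33. The remaining members with a thioredoxin fold, Txndc5, Txndc9, Txndc12, Txndc17 and Txnl1, had differences between -0.23 and 0.054.

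In total 11 member probe sets fell below the filter level. They had mean signals from 1.12 to 22.0 over the 4 arrays, and 5 genes (Gpx7, Gsta1, Gsta3, Gstt1 and Gsto1) were seen only there. T+O was within the T+T spread for 7 of the 11, above it for 3 and below it for 1. The share over all probe sets below the filter level was not taken, so these counts only describe the 11.

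A list of 72 genes that work beside these enzymes, such as NADPH producers, regulators and metal-binding proteins, was described in the same fit. A probe set was found for 52 and passed the filter for 38. None of the 38 passed (limma, lowest adjusted p = 0.36, for Idh1), 27 were above 0 and 11 below, and their median was 0.13 beside 0.026 for all probe sets. At an unadjusted p under 0.05 there was 1 higher and 1 lower, beside 3.57% of all probe sets higher and 4.23% lower. Of all probe sets tested, 53.7% were above 0. Idh1, the cytosolic isocitrate dehydrogenase that makes NADPH, had 99.2 in T+O against 43.8, 51.3 and 50.1. Every T+T array was thus at least 1.5-fold under T+O, which held for 1 of the 38 and for 2.23% of all probe sets. The Idh1 difference was -0.91 ± 0.25 (SE). Tkt, transketolase of the pentose phosphate pathway, had 62.1 against 90.8, 132 and 94.0, a difference of 0.66 ± 0.27 (SE; limma, adjusted p = 0.60).

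G6pd2, the glucose-6-phosphate dehydrogenase copy expressed in testis, had 41.1 in T+O against 55.0, 65.3 and 70.7, with T+O lowest. Abcc1, which exports glutathione conjugates, had 29.4 against 50.3, 40.7 and 43.5, also with T+O lowest. On the other side, the lactonase Pon2 had 53.3 against 36.5, 23.7 and 39.5, with T+O highest, and the mitochondrial Idh2 had 35.4 against 35.4, 30.0 and 9.82. For Idh2 only T+T replicate 3 stood clearly apart. Nfe2l2, the transcription factor that drives many antioxidant genes, had 67.2 against 68.2, 98.1 and 92.6, a difference of 0.30 ± 0.26 (SE). Heme oxygenase, Hmox1, had 181 against 197, 220 and 210, a difference of 0.20. Me1 and Taldo1, also on the list, had T+O highest, with differences of -0.38 and -0.23. Targets of Nfe2l2 were not tested as a set. The metallothioneins Mt1 and Mt2 had differences of -0.0082 and 0.10.

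**Figure D4:**
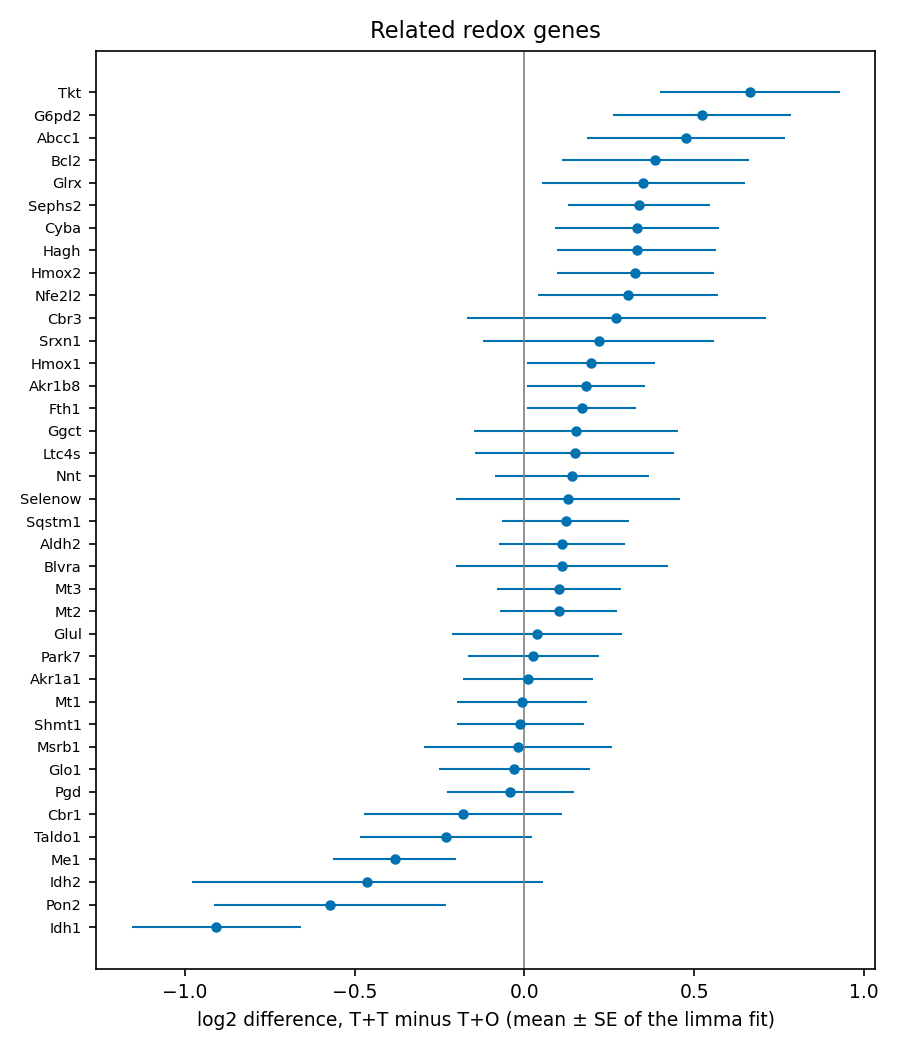
Difference T+T minus T+O on the log2 scale with the standard error of the limma fit for the 38 related redox genes kept, 1 probe set per gene. Idh1 at -0.91 and Tkt at 0.66 are the extremes.

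Between T+O and T+T replicate 1, whose descriptions both name the arm, 36 members were above 0 and 17 below, with a median of 0.15 against 0.038 for all probe sets. At least 1.5-fold higher in T+T replicate 1 was 1 member, Gstm5 on 161722_f_at at 0.60, beside 6.87% of all probe sets. At least 1.5-fold lower was also 1 member, Txndc16 at -0.65, beside 11.1%. This is 1 array against 1 and has no replicate check. The GST mu probe sets were all above 0 in this pair. The share of all probe sets above 0 in the pair is not given here, so its sign counts describe only the members.

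Read by their descriptions, T+T replicates 2 and 3 would join the withdrawn arm. In T+T replicate 1 against the other 3 arrays, 32 of the 53 members were above 0 and 21 below. The median of the members was 0.0898, beside 0.0142 for all probe sets. No member was at least 1.5-fold to a single side of all 3 others, beside 0.671% of all probe sets higher and 2.13% lower. Under this reading 11 of the 12 GST mu differences stayed above 0, with Gstm6 104637_at at 5.95e-05 and Gstm3 97682_r_at at 0.0092. The median of the 12 was 0.11, beside 0.34 with the arms taken from the titles. T+T replicate 1 is on the same side in both readings, so these signs are not a separate check. The share of all probe sets above 0 under this reading is not given here. The difference of Gpx3 became 0.28, since T+T replicates 2 and 3 had the lowest Gpx3 signals.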

How the data were processed

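Signal intensities on a linear scale, deposited by the authors as 1 value per probe set and array, were used for 4 arrays. Their software was not given in the sources used here. After leaving out 66 control probe sets, each array was scaled to a common mean with 2% of probe sets trimmed at each end (factors of 0.915 for T+O and 1.15, 1.33 and 0.779 for T+T replicates 1, 2 and 3). An offset of 9.78, the 25th percentile of the scaled values, preceded log2. Probe sets with a mean above the 40th percentile (22.7) were tested with limma 3.58.1 in R 4.3.3 (lmFit and eBayes, intensity trend on, two-sided) and adjusted over 7453 probe sets by Benjamini-Hochberg, with 2 residual and 5.73 prior degrees of freedom. The fit takes the spread of the single T+O array to be that of T+T, and the number of arrays limits the precision. No array pair shared more than 99 of 12422 values.

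Names came from the platform annotation, which gives 10833 probe sets a single symbol, 396 several and 1193 none. The third T+T array has no number in its title and was numbered in accession order. All members may be named. Values on every array are given for the brightest member of each family and for those with the highest and lowest difference, and further members were added after their values were seen. For related genes the 3 highest and 3 lowest were taken. Nfe2l2, Hmox1, Me1, Taldo1, Mt1 and Mt2 were added after their values were seen. A gene outside the members is represented by its brightest probe set. Members and lists were chosen with earlier results of these data known. The procedure was run on simulated arrays drawn with equal spread in both groups. That run cannot show whether the single T+O array varies like the T+T arrays. The alternatives were other scalings, offsets and filters, no trend, each T+T array left out, and T+T replicates 2 and 3 read as withdrawn.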

Additional observations from a re-analysis of the deposited data

How the results depend on the processing

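No paired analysis was possible because T+O has a single array whose number pairs it with nothing. Under every alternative run, 0 members and 0 related genes passed the adjusted threshold, and all 12 GST mu differences were above 0 except under the reading of T+T replicates 2 and 3 as withdrawn (11 of 12). The 0 members at least 1.5-fold to a single side of T+O became 1 with no filter (Mgst2 161865_r_at) and 0 to 1 when a T+T array was left out, the 1 being Gpx3 without replicate 1. The 2 members at least 1.5-fold apart in the single pair numbered 0 when the offset was the 50th percentile, 4 with an offset of 1 and 5 with no filter, which tests more probe sets.

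The members' median difference of 0.14 became 0.11 after median scaling, 0.095 after quantile normalization, 0.11 with the offset at the 50th percentile, 0.062 with no filter, 0.0898 with replicates 2 and 3 read as withdrawn, and 0.114 to 0.167 when a T+T array was left out. Signs were followed for the brightest member of each family and those with the highest and lowest difference. Among these, small differences turned: Gsta2 (-0.021) and Gstk1 (-0.013) after median scaling, Gstk1 (-0.014) after quantile normalization, and Prdx2 99608_at (0.0048) with the offset at the 50th percentile. After median scaling further members turned that are not listed here. Of the 53, 32 were then above 0, beside 36 in the main fit, 35 after quantile normalization and 37 with that offset. With replicates 2 and 3 read as withdrawn 12 of the 53 members turned: Gclm (-0.14), Gpx1 (-0.076), Gpx3 (0.28), Gsr (-0.25), Gss 101425_at (0.52) and 162246_r_at (-0.051), Gstk1 (-0.29), Gstm3 97681_f_at (-0.028), Gstp1 (-0.018), Sod3 (0.14), Txnip 160547_s_at (-0.076) and Txnl4a (0.56). Among the brightest, highest and lowest members of each family, leaving out a T+T array gave ranges across 0 for Gss 101425_at (-0.75 to 0.086), Gsta2 (-0.049 to 0.077), Gstk1 (-0.10 to 0.12), Prdx2 99608_at (-0.10 to 0.18), Sod1 (-0.0035 to 0.18), Sod3 (-0.16 to 0.11) and Txn2 (-0.0059 to 0.11). Such ranges are not listed for the other members, whose signs may turn as well. Of all 53, 34, 33 and 36 were above 0 without T+T replicate 1, 2 and 3. Apart from what the settings' own construction shows, the cause was not tested. Without detection calls, signal over background limits what the dim members show.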
